A study of Mus musculus with 13 samples.

Results

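Lung fibro/adipogenic progenitors (FAPs) were compared with mouse embryonic fibroblasts (MEFs) by bulk RNA sequencing, using all FAP libraries from lung (lung FAP 1 to 5) and all MEF libraries (MEF 1 to 4), which are 9 of the 13 libraries of the study. Every gene of the deposited count table entered the comparison, 23418 in all, of which 15412 had enough reads to be tested. The other 4 libraries, FAPs of skeletal muscle (replicates 2 to 5), shared the statistical fit and are cited where they place a level of lung FAPs. The study concerns parabiosis, the surgical joining of the circulation of a pair of mice, and asked which transcripts of FAPs could promote differentiation of satellite cells, the stem cells of muscle.

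The labels give the tissue or cell type of each library and nothing on genotype, strain, age, sex, treatment, the markers by which FAPs were isolated, the stage of the embryos, or whether MEFs or FAPs were grown in culture. They also do not say that replicates are separate animals or cultures, so a p-value here speaks of the spread between libraries alone, and that spread may be technical. Tissue of origin, age and handling therefore cannot be told apart in this comparison. In bulk RNA, fewer cells of a type and less RNA per cell cannot be told apart either.

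FAPs are mesenchymal cells of the tissue interstitium. They carry the receptor Pdgfra and the surface proteins Ly6a (Sca-1) and Cd34, build extracellular matrix, secrete signals for neighbouring cells, and can form fibroblasts or fat cells. MEFs are fibroblasts taken from whole or partly dissected embryos, usually expanded on plastic, and are the standard fibroblast of cell culture. Genes that record body position, such as the Hox clusters, stay on or off in fibroblasts according to the site they came from.

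The libraries held 28636183 to 35464622 counts in lung FAPs and 33756915 to 41466585 in MEFs. Levels are given as CPM, read counts relative to the size of the library, scaled by TMM, a normalisation that assumes most genes do not differ. A single gene, Gsn, took 3.42% to 5.12% of the counts of a lung FAP library, and no gene took more than 0.995% in a MEF library. Spearman correlations of gene levels were 0.964 to 0.985 among lung FAPs, 0.986 to 0.997 among MEFs and 0.764 to 0.786 between them. Some libraries stood apart in markers of other cells, which were summed over short lists. Markers of lung epithelium reached 9321 CPM in lung FAP 3 and stayed between 53.8 and 193 CPM in the other lung FAPs. Endothelial markers reached 1321 CPM in lung FAP 2 and 262 to 512 CPM in the other 4. Macrophage markers were present in every MEF library, at 236 to 824 CPM. The female transcript Xist was at 87.2 CPM in MEF 2 and 99.5 CPM in MEF 4 and low elsewhere, at most 0.485 CPM. The Y-linked Ddx3y was at 0.0637 CPM in MEF 2 and 37.5 to 69.9 CPM in the other MEFs, so the MEF libraries differed in these markers.

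Most tested genes differed. At a Benjamini-Hochberg adjusted p under 0.05 by edgeR's quasi-likelihood test, 5825 genes were higher in lung FAPs, which is 37.8% of those tested, and 5639 were lower, 36.6%, so that 74.4% passed in either direction. The median log2 fold change (lung FAP minus MEF) over all tested genes was 0.02. Differences over 4-fold were more frequent upward, with 16.7% of tested genes higher and 10.2% lower by that measure. In 32.2% of tested genes all 5 lung FAP libraries lay above all 4 MEF libraries, and in 33.1% they all lay below. These shares are the background against which each list of genes below is read, since a list with no particular behaviour would also show many differences.

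**Figure D1:**
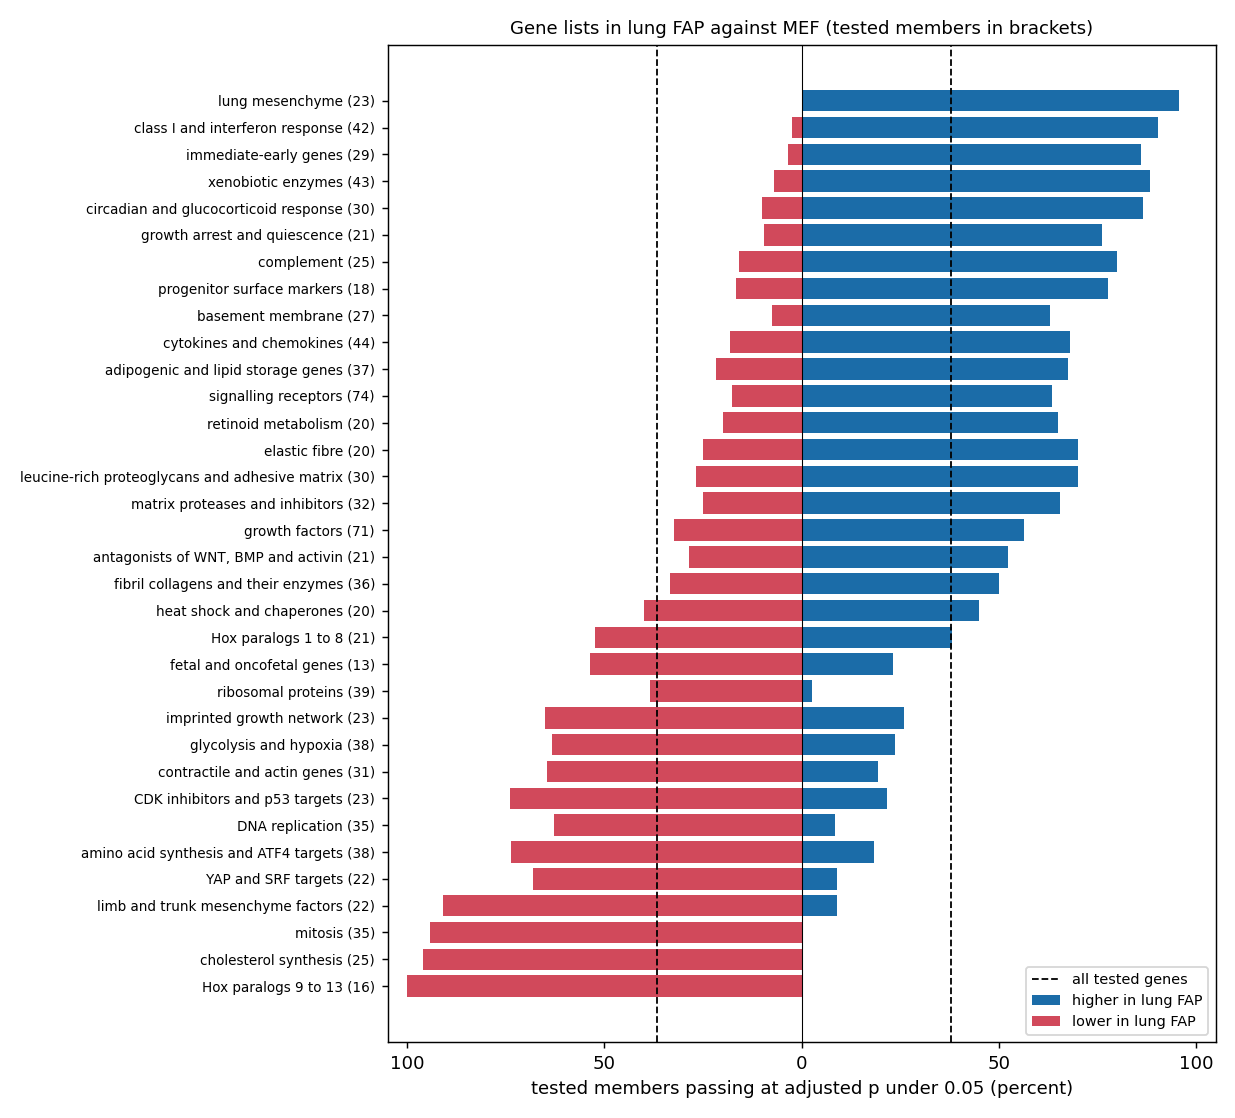
Share of tested members of 34 gene lists that passed at an adjusted p under 0.05, to the right where higher in lung FAPs and to the left where lower, in percent, with the number tested in brackets. Dashed lines mark the shares over all tested genes, 37.8% higher and 36.6% lower. Complement, class I and interferon, xenobiotic enzymes and lung mesenchyme reach far to the right, and cholesterol synthesis, mitosis and Hox paralogs 9 to 13 far to the left.

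The markers that define the labelled cell type were present in lung FAPs and lower in MEFs. Pdgfra was at 799, 846, 779.6, 776 and 800.00 CPM in lung FAP 1 to 5 and 30.1, 34.7, 22.97 and 29.8 CPM in MEF 1 to 4. The lung FAP libraries were close to each other and all above the MEFs (log2 fold change 4.77 ± 0.126, adjusted p = 4.58e-13). Cd34, a sialomucin of progenitor and endothelial surfaces, was at 1782, 1112, 1561, 2134 and 1616 CPM in lung FAP 1 to 5 and 23.2, 26.6, 23.9 and 24.3 CPM in MEF 1 to 4. The lowest lung FAP was 41.8 times the highest MEF (log2 fold change 6.06 ± 0.159, adjusted p = 9.12e-13). Ly6a was at 938, 633, 751, 1157 and 793 CPM in lung FAP 1 to 5 and 78.97, 97.5, 111 and 58.8 CPM in MEF 1 to 4, with no overlap (log2 fold change 3.302 ± 0.249, adjusted p = 4.24e-09). Of 18 tested surface markers of progenitors, 14 were higher in lung FAPs and 3 lower, with a median log2 fold change of 2.38. Pi16, a marker of adventitial fibroblasts, had 3228 ± 1047 CPM (SD, n = 5) in lung FAPs and 1.72 ± 0.793 CPM (SD, n = 4) in MEFs (log2 fold change 10.88 ± 0.460, adjusted p = 3.75e-11). Dpp4, a surface peptidase of the same cells, was at 229 ± 75.2 CPM in lung FAPs and 0.923 ± 0.246 CPM in MEFs, and Dpt, which encodes the matrix protein dermatopontin, at 3342 ± 808 CPM in lung FAPs and 5.97 ± 1.57 CPM in MEFs. The members lower in lung FAPs were Thy1 (log2 fold change −1.399), the integrin chain Itgav (−2.12) and the hyaluronan receptor Cd44 (−2.74). Pdgfrb, the receptor shared by most mesenchymal cells, did not pass, at 255 ± 91.5 CPM in lung FAPs and 277 ± 23.1 CPM in MEFs.

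Genes of lung mesenchyme were higher in lung FAPs almost throughout. Of 23 tested, 22 were higher, 0 lower, and 20 exceeded 4-fold, with a median log2 fold change of 3.73. Inmt, an amine methyltransferase abundant in lung, was at 1855, 2606, 2231, 2106 and 2382 CPM in lung FAP 1 to 5 and 2.04, 1.42, 0.523 and 0.328 CPM in MEF 1 to 4. All lung FAPs were far above all MEFs (log2 fold change 11.03 ± 0.578, adjusted p = 1.39e-10). Muscle FAPs had 526 CPM of Inmt, so a level far above MEFs was not particular to lung FAPs. Against muscle FAPs, 18 of the 23 members were higher in lung FAPs, 1 was lower and 4 did not pass. Over all tested genes, 25% were higher and 23.2% lower in that comparison. Tcf21, a transcription factor of lung interstitial fibroblasts, was at 96.4, 122, 101, 124 and 122 CPM in lung FAP 1 to 5 and 0.606, 0.531, 0.250 and 0.287 CPM in MEF 1 to 4. All lung FAPs were at least 159 times any MEF (log2 fold change 8.08 ± 0.289, adjusted p = 5.89e-09), and Tcf21 was also higher than in muscle FAPs, which had 0.762 ± 0.660 CPM (log2 fold change of lung over muscle 7.21 ± 0.794, adjusted p = 8.84e-08). The T-box factors Tbx4 and Tbx5, which pattern the lung bud and the limbs, had log2 fold changes of 2.48 and 2.99. Foxf1, a factor of visceral mesenchyme, was at 59.9 ± 30.95 CPM in lung FAPs and 10.1 ± 1.87 CPM in MEFs (log2 fold change 2.56 ± 0.308, adjusted p = 2.84e-06). Fgf10, the growth signal for lung buds, was at 55.5 ± 5.94 CPM in lung FAPs and 10.3 ± 2.298 CPM in MEFs (log2 fold change 2.42 ± 0.182, adjusted p = 9.69e-09). Npnt, a ligand of integrin alpha 8 in alveolar walls, was at 233 ± 139 CPM in lung FAPs and 43.5 ± 4.29 CPM in MEFs, against 1.19 ± 0.311 CPM in muscle FAPs. Itga8, which encodes that integrin, was at 189 ± 108 CPM in lung FAPs and 20.7 ± 3.88 CPM in MEFs. Nkx6-1 was the member that did not pass, at 2.39 ± 1.27 CPM in lung FAPs and 1.61 ± 0.363 CPM in MEFs. In 14 of the 23 members the highest lung FAP library was lung FAP 2.

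**Figure D2:**
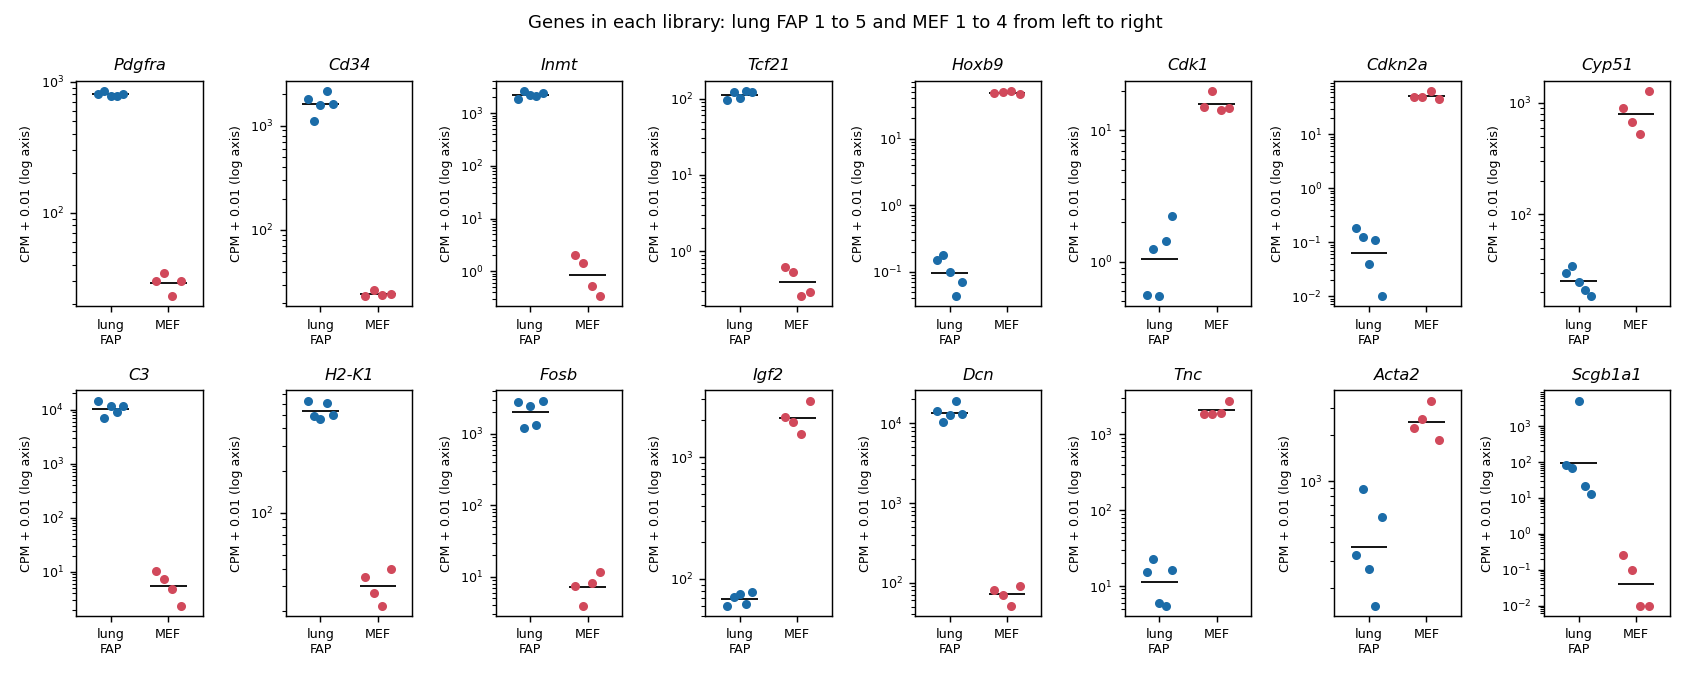
CPM plus 0.01 on log axes for 16 genes, one point per library, lung FAP 1 to 5 and then MEF 1 to 4, with a line at the geometric mean of each group. In all 16 panels the groups do not overlap, and in the panel of Scgb1a1 lung FAP 3 lies far above the other lung FAPs.

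Transcription factors of limb and trunk mesenchyme showed the opposite pattern. Of 22 tested, 20 were lower in lung FAPs and 2 higher, with a median log2 fold change of −3.54. En1, the engrailed factor of ventral ectoderm and dermis, had 2 counts over all lung FAP libraries and was at 17.6 ± 1.53 CPM in MEFs, a ratio of counts of 1469 with a 95% counting interval of 406 to 12136. Pitx1, which specifies the hindlimb, was at 0.133 ± 0.263 CPM in lung FAPs and 14.3 ± 3.59 CPM in MEFs (log2 fold change −6.68 ± 0.697, adjusted p = 3.75e-06), and its log2 fold change was −9.59 without lung FAP 1. Tbx15, a factor of dermis and limb muscle connective tissue, was at 0, 0.799, 1.25, 0.366 and 1.23 CPM in lung FAP 1 to 5 and 76.4, 73.2, 56.5 and 76.7 CPM in MEF 1 to 4. All lung FAPs lay below all MEFs (log2 fold change −6.59 ± 0.867, adjusted p = 3.71e-08), whereas muscle FAPs had 179.9 ± 50.1 CPM. Shox2 and Hand2, which shape the proximal and posterior limb bud, had log2 fold changes of −4.33 and −3.95, and that of Shox2 became −5.200 without lung FAP 5. Meox2, of somites and limb muscle, was the clear exception, at 46.5 ± 4.96 CPM in lung FAPs and 2.04 ± 0.549 CPM in MEFs (log2 fold change 4.51 ± 0.183, adjusted p = 8.47e-12). Prrx1, a general limb mesenchyme factor, was at 173 ± 32.3 CPM in lung FAPs and 259 ± 21.6 CPM in MEFs, a log2 fold change of −0.59.

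The Hox clusters divided by paralog number. Hox genes are expressed along the body axis in the order of their position in each cluster, the low paralogs from the neck down and the high ones in the trunk, limbs and tail. Among paralogs 9 to 13, all 16 tested genes were lower in lung FAPs, each by more than 4-fold and without overlap of the libraries. The median log2 fold change was −8.89, or −8.54 with genes that had no count set at their bound. Hoxb9 was at 0.143, 0.171, 0.0894, 0.0332 and 0.0602 CPM in lung FAP 1 to 5 and 47.7, 50.2, 51.1 and 47.04 CPM in MEF 1 to 4. Lung FAPs had only traces of it, and the MEFs were close to each other (log2 fold change −8.87 ± 0.253, adjusted p = 9.50e-08). Hoxd13, of the digits and the tail end, was at 0.0307 ± 0.0369 CPM in lung FAPs and 27.7 ± 3.88 CPM in MEFs (log2 fold change −9.697 ± 0.283, adjusted p = 1.14e-11), and its log2 fold change was −10.59 without lung FAP 5. Hoxc10, of the lumbar trunk and hindlimb, had no count in any lung FAP library and 13.05 ± 1.84 CPM in MEFs, at least 726-fold lower counted against 3 counts over the group. Hoxa10 was at 0.0301 ± 0.0203 CPM in lung FAPs and 17.9 ± 1.02 CPM in MEFs (log2 fold change −9.07 ± 0.174, adjusted p = 2.15e-13). For genes this close to 0 in lung FAPs the SE is too small, as the shift of Hoxd13 without lung FAP 5 shows.

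Paralogs 1 to 8 went both ways. Of 21 tested, 8 were higher and 11 lower in lung FAPs. Of the higher genes, all belong to paralogs 2 to 5 of the Hoxa and Hoxb clusters. Hoxa5, which the developing lung requires, was at 21.999, 31.7, 21.5, 20.3 and 26.4 CPM in lung FAP 1 to 5 and 5.67, 6.88, 6.997 and 5.49 CPM in MEF 1 to 4. The lowest lung FAP was 2.902 times the highest MEF (log2 fold change 1.96 ± 0.149, adjusted p = 1.15e-07). Hoxa4 was at 4.59 ± 0.422 CPM in lung FAPs and 0.790 ± 0.148 CPM in MEFs and Hoxb4 at 13.7 ± 1.36 CPM in lung FAPs and 6.14 ± 1.48 CPM in MEFs. Members of the Hoxc cluster were lower or did not pass. Hoxc6 was at 0.576 ± 0.408 CPM in lung FAPs and 12.04 ± 1.34 CPM in MEFs (log2 fold change −4.39 ± 0.788, adjusted p = 2.24e-06), and Hoxc4 was at 2.54 ± 0.774 CPM in lung FAPs and 2.47 ± 0.560 CPM in MEFs and did not pass. In muscle FAPs Hoxc6 was at 16.99 ± 3.81 CPM.

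**Figure D3:**
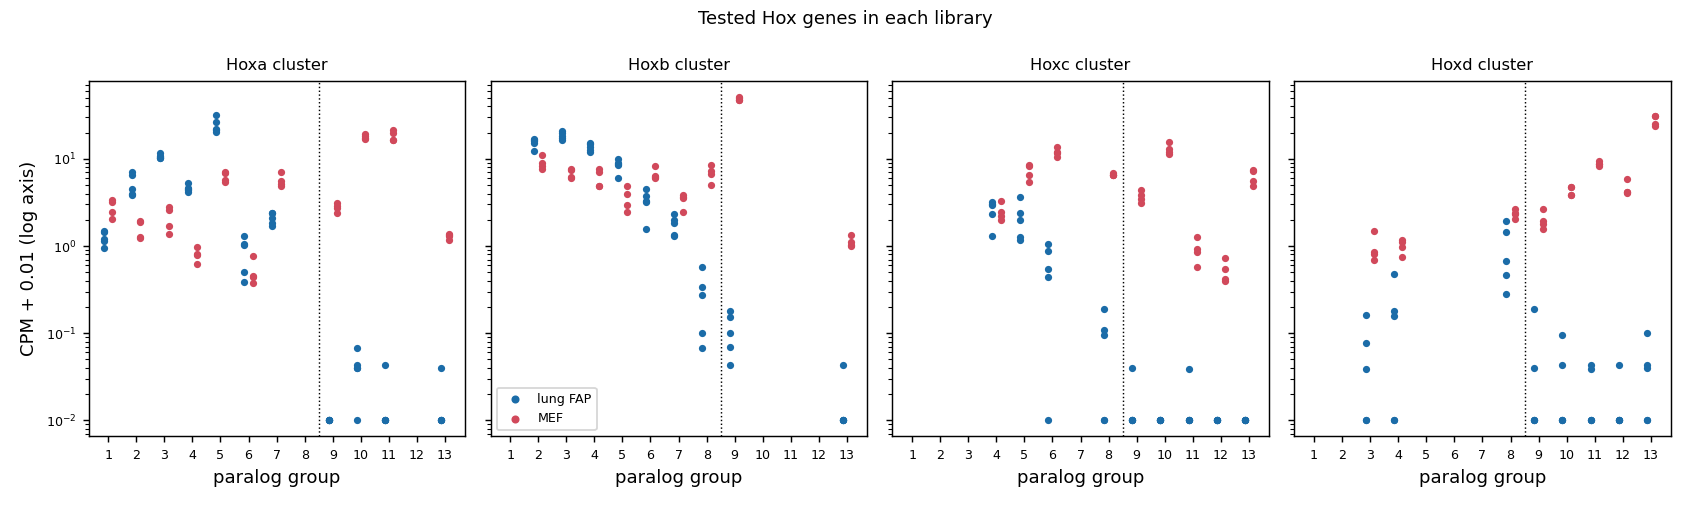
CPM plus 0.01 on a log axis for the tested Hox genes of the Hoxa to Hoxd clusters, by paralog group, one point per library, lung FAPs in blue and MEFs in red. To the right of the dotted line, in paralogs 9 to 13, all lung FAP points lie below all MEF points; among Hoxa and Hoxb paralogs 2 to 5 they lie above.

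Genes of mitosis were lower in lung FAPs. Cells that divide raise these genes in the G2 phase. In their promoters the DREAM and MuvB complexes bind the CHR element, and NF-Y binds the CCAAT box. Of 35 tested genes 33 were lower, 0 higher, and 25 exceeded 4-fold, with a median log2 fold change of −2.58. Cdk1, the kinase that drives entry into mitosis, was at 0.544, 1.23, 0.536, 1.43 and 2.23 CPM in lung FAP 1 to 5 and 14.98, 19.7, 14.2 and 14.7 CPM in MEF 1 to 4. The highest lung FAP, replicate 5, was still below the lowest MEF, which was 6.38 times higher (log2 fold change −3.74 ± 0.397, adjusted p = 3.26e-07). Mki67, the antigen by which dividing cells are stained, was at 4.67, 4.37, 2.89, 2.16 and 3.01 CPM in lung FAP 1 to 5 and 18.9, 15.3, 9.56 and 22.4 CPM in MEF 1 to 4. It showed no overlap (log2 fold change −2.27 ± 0.333, adjusted p = 5.59e-06). Aurka, a spindle kinase, was at 0.590 ± 0.260 CPM in lung FAPs and 9.503 ± 1.12 CPM in MEFs (log2 fold change −4.004 ± 0.367, adjusted p = 3.16e-08). Top2a, which untangles replicated DNA, was at 2.11 ± 0.900 CPM in lung FAPs and 27.1 ± 5.504 CPM in MEFs (log2 fold change −3.68 ± 0.366, adjusted p = 6.14e-07). The levels in MEFs were low in absolute terms: the summed list reached 291 to 379 CPM in MEFs and 64.9 to 76.7 CPM in lung FAPs. Nusap1 and Espl1 did not pass in the full set. Nusap1 passed without lung FAP 4 (−0.92) or MEF 3 (−0.95), and Espl1 without lung FAP 1 (−0.78) or MEF 4 (−0.76), as log2 fold changes. Both also passed with the DESeq2 Wald test (adjusted p = 0.0409 and 0.0445).

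DNA replication genes were lower in most cases. Of 35 tested, 22 were lower in lung FAPs, 3 higher and 10 did not pass, with a median of −0.96. Rrm2, the subunit of ribonucleotide reductase that is made in S phase, was at 3.09, 1.88, 3.31, 2.43 and 3.85 CPM in lung FAP 1 to 5 and 80.98, 113, 127 and 59.4 CPM in MEF 1 to 4. All lung FAPs were below all MEFs (log2 fold change −5.03 ± 0.304, adjusted p = 8.22e-11). Mcm2 of the replicative helicase was at 5.19 ± 1.73 CPM in lung FAPs and 43.4 ± 4.87 CPM in MEFs (log2 fold change −3.06 ± 0.224, adjusted p = 1.76e-09), while Mcm4 and Mcm6 of the same helicase did not pass, at 31.1 ± 3.08 CPM in lung FAPs and 33.6 ± 3.403 CPM in MEFs and 28.2 ± 4.21 CPM in lung FAPs and 31.6 ± 4.79 CPM in MEFs, although both were lower with scaling by library size only (log2 fold changes −0.29 and −0.35). Pola1, the catalytic subunit of DNA polymerase alpha, was higher, at 14.1 ± 1.36 CPM in lung FAPs and 6.33 ± 1.76 CPM in MEFs (log2 fold change 1.16 ± 0.238, adjusted p = 7.81e-05).

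Promoters of these genes are shown because the 2 named with the largest folds among mitosis genes carry the elements just described. The windows, from RefSeq on GRCm38.p6, run from 250 bases before the annotated start to 50 after it and are printed 5′ to 3′ on the strand of the gene. They cover chr10:69352863-69353162 on the minus strand for Cdk1, chr2:172370521-172370820 on the minus strand for Aurka and chr12:24708004-24708303 on the plus strand for Rrm2. Capitals mark the CHR (TTTGAA or TTCGAA), the CCAAT box (CCAAT) and E2F sites (TTTCCCGC or TTTGGCGC), on either strand.
Cdk1: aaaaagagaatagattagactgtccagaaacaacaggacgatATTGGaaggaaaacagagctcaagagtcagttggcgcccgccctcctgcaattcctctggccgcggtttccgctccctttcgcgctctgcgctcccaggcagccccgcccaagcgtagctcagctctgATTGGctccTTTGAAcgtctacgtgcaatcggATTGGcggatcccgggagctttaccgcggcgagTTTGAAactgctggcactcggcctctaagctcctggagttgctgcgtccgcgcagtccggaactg
Aurka: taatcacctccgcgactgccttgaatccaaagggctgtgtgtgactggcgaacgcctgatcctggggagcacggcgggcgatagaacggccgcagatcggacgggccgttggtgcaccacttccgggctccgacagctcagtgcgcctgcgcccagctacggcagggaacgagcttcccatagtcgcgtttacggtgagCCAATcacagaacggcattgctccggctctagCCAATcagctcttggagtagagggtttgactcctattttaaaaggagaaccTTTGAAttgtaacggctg
Rrm2: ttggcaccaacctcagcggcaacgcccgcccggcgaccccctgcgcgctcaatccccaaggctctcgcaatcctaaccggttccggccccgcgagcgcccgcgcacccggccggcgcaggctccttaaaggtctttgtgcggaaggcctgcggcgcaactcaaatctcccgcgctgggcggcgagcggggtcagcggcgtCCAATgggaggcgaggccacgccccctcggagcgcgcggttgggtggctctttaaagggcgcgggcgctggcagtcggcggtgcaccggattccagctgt
Cdk1 held 2 CHR and 3 CCAAT letters in its window, Aurka 1 and 2, and Rrm2 a single CCAAT box. A CHR lay in 25 of 31 windows of 29 matched mitosis genes (80.6%), against 19.2% of all 32851 windows and 13.9% of the windows of tested genes. The CCAAT box lay in 80.6% of the mitosis windows, against 37.4% and 36.9%. An E2F site lay in 9 of 33 windows of DNA replication genes (27.3%), against 1.56% and 2.59%. A match of letters is a description of the window and not a measured binding site.

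Inhibitors of the cell cycle and targets of p53 were also mostly lower in lung FAPs. p53 is the transcription factor that answers DNA damage and culture stress, and the Cdkn2a locus encodes p16 and p19, which restrain growth. Of 23 tested genes 17 were lower and 5 higher, with a median of −2.83. Cdkn2a was at 0.172, 0.114, 0.0298, 0.0997 and 0 CPM in lung FAP 1 to 5 and 48.5, 48.9, 62.6 and 45.2 CPM in MEF 1 to 4. Lung FAP 5 had no count of it, and the MEFs were close together (log2 fold change −9.201 ± 0.389, adjusted p = 2.75e-12). The neighbouring Cdkn2b, for p15, was at 1.41 ± 0.804 CPM in lung FAPs and 94.9 ± 6.03 CPM in MEFs (log2 fold change −6.06 ± 0.313, adjusted p = 1.53e-10). Cdkn1a, for p21, was at 279, 156, 160.2, 255 and 155 CPM in lung FAP 1 to 5 and 1088, 1176, 1434 and 1009 CPM in MEF 1 to 4. It did not overlap (log2 fold change −2.55 ± 0.218, adjusted p = 7.83e-09). The p53 targets Ccng1, Mdm2 and Bax had log2 fold changes of −3.65, −2.83 and −3.17. Gtse1, a regulator of p53 in G2, was at 0.561 ± 0.255 CPM in lung FAPs and 106 ± 12.3 CPM in MEFs (log2 fold change −7.56 ± 0.354, adjusted p = 2.85e-12). In the other direction, Cdkn1b, for p27, was at 51.4 ± 3.97 CPM in lung FAPs and 13.2 ± 0.861 CPM in MEFs (log2 fold change 1.96 ± 0.0687, adjusted p = 4.30e-11), and Cdkn2c, for p18, had a log2 fold change of 2.13. Sesn1, a stress-induced regulator of growth signalling, was at 76.8 ± 11.9 CPM in lung FAPs and 10.9 ± 1.54 CPM in MEFs (log2 fold change 2.82 ± 0.135, adjusted p = 5.02e-11).

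Genes associated with growth arrest were mainly higher in lung FAPs, 16 of 21, with 2 lower and a median of 1.48. Sepp1, the selenium carrier, was at 1492 ± 217 CPM in lung FAPs and 36.9 ± 12.9 CPM in MEFs (log2 fold change 5.34 ± 0.323, adjusted p = 7.82e-11). Gas1, a growth arrest protein of the membrane, was at 319 ± 96.9 CPM in lung FAPs and 15.3 ± 1.56 CPM in MEFs (log2 fold change 4.38 ± 0.223, adjusted p = 1.51e-10). Txnip, an inhibitor of thioredoxin and glucose uptake, was at 336 ± 74.5 CPM in lung FAPs and 47.5 ± 6.99 CPM in MEFs, and Foxo1 at 74.4 ± 23.9 CPM in lung FAPs and 17.5 ± 1.51 CPM in MEFs. Tsc22d1 was lower, at 161 ± 33.8 CPM in lung FAPs and 573 ± 60.5 CPM in MEFs (log2 fold change −1.83 ± 0.148, adjusted p = 9.06e-09).

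Cholesterol synthesis was the list with the most uniform downward difference among the metabolic ones. The pathway builds sterols from acetyl-CoA, and SREBP2, encoded by Srebf2, switches its genes on when cell sterol is low. Of 25 tested genes 24 were lower in lung FAPs, 23 of them over 4-fold, with a median log2 fold change of −3.55. The summed list was at 532 to 650.1 CPM in lung FAPs and 5278 to 9938 CPM in MEFs, MEF 4 the highest. Cyp51, the lanosterol demethylase, was at 29.99, 34.4, 25.03, 20.9 and 18.5 CPM in lung FAP 1 to 5 and 905, 666, 524 and 1268 CPM in MEF 1 to 4. MEF 4 was the highest and MEF 3 the lowest MEF, and the lowest MEF was still 15.2 times the highest lung FAP (log2 fold change −5.03 ± 0.321, adjusted p = 2.11e-10). Sqle, the epoxidase before the sterol ring closes, was at 9.86 ± 2.28 CPM in lung FAPs and 347 ± 71.6 CPM in MEFs (log2 fold change −5.14 ± 0.205, adjusted p = 2.19e-12). Srebf2 itself was at 92.9 ± 15.7 CPM in lung FAPs and 345 ± 20.8 CPM in MEFs (log2 fold change −1.89 ± 0.121, adjusted p = 1.14e-09). Ebp did not pass, at 32.5 ± 7.196 CPM in lung FAPs and 38.1 ± 4.78 CPM in MEFs, although it was lower without lung FAP 4 (log2 fold change −0.39) and with scaling by library size only (−0.41).

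The promoters of Hmgcs1, the synthase that makes HMG-CoA, and of Cyp51 were added after their values were seen, to show the letters that these genes share. The windows cover chr13:119690101-119690400 on the plus strand for Hmgcs1 and chr5:4104648-4104947 on the minus strand for Cyp51, with the same source and limits as above, and capitals mark the CCAAT box and a sterol element (TCACCCCAC or TCACCCGAC).
Hmgcs1: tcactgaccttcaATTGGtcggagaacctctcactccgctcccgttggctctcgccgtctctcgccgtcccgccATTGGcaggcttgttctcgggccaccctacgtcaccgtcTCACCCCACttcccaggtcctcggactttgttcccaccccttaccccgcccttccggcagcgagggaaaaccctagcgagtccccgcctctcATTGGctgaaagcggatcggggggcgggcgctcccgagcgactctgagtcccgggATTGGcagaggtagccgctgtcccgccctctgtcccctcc
Cyp51: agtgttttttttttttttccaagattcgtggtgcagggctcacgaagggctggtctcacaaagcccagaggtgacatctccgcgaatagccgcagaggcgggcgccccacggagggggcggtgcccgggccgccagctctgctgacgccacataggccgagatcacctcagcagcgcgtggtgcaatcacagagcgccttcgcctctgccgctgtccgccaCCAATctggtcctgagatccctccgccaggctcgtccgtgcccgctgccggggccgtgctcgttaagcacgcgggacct
Of 20 matched promoters of the list, 16 held a CCAAT box (80.0%), against 37.4% of all windows, and 1, that of Hmgcs1, held the sterol element in these letters.

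Glycolysis was lower in lung FAPs for most members. Of 38 tested genes 24 were lower and 9 higher, with a median of −1.15. Pkm, pyruvate kinase, was at 346, 292, 295, 288 and 337 CPM in lung FAP 1 to 5 and 3719.5, 4154, 4375 and 3691 CPM in MEF 1 to 4. The lung FAPs lay close to each other and below all MEFs (log2 fold change −3.68 ± 0.0827, adjusted p = 9.31e-13). Pgk1 was at 93.7 ± 8.08 CPM in lung FAPs and 1140.5 ± 55.1 CPM in MEFs (log2 fold change −3.61 ± 0.0639, adjusted p = 5.27e-13), and Ldha, which makes lactate, at 263 ± 32.1 CPM in lung FAPs and 1564 ± 88.9 CPM in MEFs (log2 fold change −2.57 ± 0.0875, adjusted p = 9.89e-11). Slc2a1, the basal glucose transporter, was at 37.4 ± 1.67 CPM in lung FAPs and 176 ± 17.9 CPM in MEFs (log2 fold change −2.23 ± 0.0767, adjusted p = 8.01e-11). Pdk4, a kinase that inhibits pyruvate dehydrogenase, was higher, at 68.1 ± 9.18 CPM in lung FAPs and 12.8 ± 1.79 CPM in MEFs (log2 fold change 2.41 ± 0.129, adjusted p = 2.38e-10).

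Amino acid synthesis and targets of ATF4, the factor of amino acid shortage, were lower in 28 of 38 tested genes and higher in 7, with a median of −1.58. Phgdh, the first enzyme of serine synthesis, was at 32.2, 17.4, 24.2, 23.4 and 25.7 CPM in lung FAP 1 to 5 and 259.7, 339.9, 388 and 252 CPM in MEF 1 to 4. No lung FAP reached the lowest MEF (log2 fold change −3.66 ± 0.208, adjusted p = 4.78e-11). Psat1, the next enzyme, was at 13.2 ± 2.81 CPM in lung FAPs and 174 ± 12.02 CPM in MEFs (log2 fold change −3.72 ± 0.150, adjusted p = 1.04e-11), and Asns, asparagine synthetase, at 11.1 ± 3.95 CPM in lung FAPs and 102 ± 6.47 CPM in MEFs (log2 fold change −3.203 ± 0.240, adjusted p = 7.47e-09). Chac1, which degrades glutathione, was at 1.17 ± 0.308 CPM in lung FAPs and 39.5 ± 6.35 CPM in MEFs (log2 fold change −5.07 ± 0.199, adjusted p = 2.26e-11). Atf4 mRNA itself did not pass, at 349.95 ± 42.7 CPM in lung FAPs and 316 ± 28.4 CPM in MEFs. Slc1a5, a glutamine transporter, was higher, at 349 ± 61.1 CPM in lung FAPs and 33.5 ± 5.14 CPM in MEFs (log2 fold change 3.38 ± 0.165, adjusted p = 5.71e-11).

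Fat-related genes were higher in most cases. Among 37 tested adipogenic and lipid storage genes 25 were higher and 8 lower, with a median log2 fold change of 1.63. Their summed level was not higher, at 3556 to 4101 CPM in lung FAPs and 3992 to 6704 CPM in MEFs. Of the lower ones, Fasn, the fatty acid synthase, was at 87.2 ± 45.7 CPM in lung FAPs and 1140.1 ± 154 CPM in MEFs (log2 fold change −3.71 ± 0.402, adjusted p = 2.18e-07), Scd2, a desaturase, at 131 ± 30.95 CPM in lung FAPs and 2039 ± 808 CPM in MEFs (log2 fold change −3.96 ± 0.327, adjusted p = 2.59e-09) and Fabp3, a fatty acid carrier, at 5.27 ± 1.34 CPM in lung FAPs and 78.7 ± 15.1 CPM in MEFs (log2 fold change −3.898 ± 0.216, adjusted p = 2.66e-09). Of the higher ones, Lpl, the lipase that frees fatty acids from lipoproteins, was at 467 ± 104 CPM in lung FAPs and 35.3 ± 8.43 CPM in MEFs (log2 fold change 3.72 ± 0.231, adjusted p = 4.87e-10), and Angptl4, its inhibitor, at 143 ± 20.3 CPM in lung FAPs and 4.28 ± 1.31 CPM in MEFs (log2 fold change 5.06 ± 0.245, adjusted p = 1.16e-10). The early adipogenic factors Cebpd (4.55) and Ebf2 (2.73) were higher on the log2 scale, while Pparg, the master regulator of fat cells, did not pass, at 3.61 ± 0.907 CPM in lung FAPs and 3.81 ± 1.301 CPM in MEFs. Adipoq, the defining hormone of fat cells, was at 17.1, 2.88, 2.86, 3.39 and 3.49 CPM in lung FAP 1 to 5 and 0, 0.127, 0 and 0 CPM in MEF 1 to 4. Lung FAP 1 was far above the other libraries, and the log2 fold change of 7.36 became 6.45 without it and 10.76 without MEF 2.

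Enzymes that handle foreign compounds were among the lists most often higher in lung FAPs. Of 43 tested, 38 were higher, 3 lower and 30 over 4-fold higher, with a median log2 fold change of 4.86. Fmo2, the flavin monooxygenase of lung, was at 703, 1185, 849, 826 and 845 CPM in lung FAP 1 to 5 and 0.994, 0.722, 0.250 and 0.184 CPM in MEF 1 to 4. Even the lowest lung FAP was 708 times the highest MEF (log2 fold change 10.69 ± 0.531, adjusted p = 7.28e-11). Adh1, an alcohol and retinol dehydrogenase, was at 468 ± 41.4 CPM in lung FAPs and 1.802 ± 0.826 CPM in MEFs (log2 fold change 8.02 ± 0.411, adjusted p = 3.93e-11). Gpx3, secreted glutathione peroxidase, was at 1285 ± 88.6 CPM in lung FAPs and 16.4 ± 3.57 CPM in MEFs (log2 fold change 6.29 ± 0.168, adjusted p = 6.62e-13), and Sod3, the extracellular superoxide dismutase, at 766 ± 163 CPM in lung FAPs and 3.93 ± 1.196 CPM in MEFs (log2 fold change 7.61 ± 0.279, adjusted p = 3.72e-12). Cyp2f2 and Cbr2 are also made by club cells of the airway, whose marker Scgb1a1 was highest in lung FAP 3. Cyp2f2 was at 12.6, 9.11, 332, 7.31 and 4.33 CPM in lung FAP 1 to 5 and 0.0727, 0.127, 0.204 and 0.0410 CPM in MEF 1 to 4. Without lung FAP 3 its log2 fold change of 9.32 became 6.200. Cbr2 was at 9.85, 17.4, 747, 2.36 and 6.77 CPM in lung FAP 1 to 5 and 2.81, 3.52, 2.82 and 1.93 CPM in MEF 1 to 4. Its groups overlapped, and its log2 fold change of 5.82 became 1.72 without lung FAP 3. With limma-voom neither Cyp2f2 (adjusted p = 0.117) nor Cbr2 (adjusted p = 0.141) passed, and Cbr2 also lost its call with the replicate number as a block (adjusted p = 0.0695) and with MEF 2 and 4 left out (adjusted p = 0.102). The part of epithelial RNA in these values was not tested. Gsto1 was the strongest exception, at 21.3 ± 14.1 CPM in lung FAPs and 1157 ± 94.6 CPM in MEFs (log2 fold change −5.77 ± 0.359, adjusted p = 1.19e-08).

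Retinoid genes were higher in 13 of 20 tested genes and lower in 4. Of the higher ones, Rbp4, the retinol carrier, was at 103 ± 8.79 CPM in lung FAPs and 0.304 ± 0.118 CPM in MEFs (log2 fold change 8.38 ± 0.229, adjusted p = 1.51e-13), and Aldh1a1, a retinal dehydrogenase, at 317 ± 70.7 CPM in lung FAPs and 3.58 ± 1.15 CPM in MEFs (log2 fold change 6.47 ± 0.277, adjusted p = 1.12e-11). Of the lower ones, Crabp1, which binds retinoic acid, was at 1.43, 0.828, 0.149, 0.465 and 0.120 CPM in lung FAP 1 to 5 and 141, 123, 78.6 and 179.7 CPM in MEF 1 to 4, and its log2 fold change of −7.74 became −8.36 without lung FAP 1, the highest of its group. Cyp26b1, which degrades retinoic acid, was at 1.89 ± 0.838 CPM in lung FAPs and 19.3 ± 9.88 CPM in MEFs (log2 fold change −3.34 ± 0.562, adjusted p = 7.50e-06).

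Matrix genes were higher in lung FAPs in most but not all families. Fibril collagens form the load-bearing fibres, and 18 of 36 tested collagen genes and their enzymes were higher and 12 lower, shares near the background. Col3a1, of the thin fibres of soft organs, was at 19917, 12912, 16535, 10890.1 and 15163 CPM in lung FAP 1 to 5 and 423, 471, 383 and 478 CPM in MEF 1 to 4. The lowest lung FAP was 22.8 times the highest MEF (log2 fold change 5.104 ± 0.167, adjusted p = 3.61e-11). Col14a1, which decorates fibrils, was at 2027 ± 295 CPM in lung FAPs and 6.74 ± 1.203 CPM in MEFs (log2 fold change 8.23 ± 0.170, adjusted p = 2.29e-13), and Col1a1, of the main fibril, at 6302 ± 3353 CPM in lung FAPs and 2989.7 ± 348 CPM in MEFs (log2 fold change 1.08 ± 0.440, adjusted p = 0.0147). Lung FAP 4, at 2069 CPM, lay below every MEF, and the call of Col1a1 was lost with the replicate number as a block (adjusted p = 0.0537) and with MEF 2 and 4 left out (adjusted p = 0.0834). Of the lower genes, the cartilage chain Col2a1 was at 0.126 ± 0.120 CPM in lung FAPs and 62.9 ± 22.4 CPM in MEFs (log2 fold change −8.93 ± 0.545, adjusted p = 1.10e-08) and Col11a1 at 0.543 ± 0.282 CPM in lung FAPs and 155 ± 44.4 CPM in MEFs (log2 fold change −8.14 ± 0.572, adjusted p = 4.35e-10). Lox, the enzyme that crosslinks fibres, was at 322 ± 53.5 CPM in lung FAPs and 1405 ± 243 CPM in MEFs (log2 fold change −2.13 ± 0.164, adjusted p = 4.71e-09).

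Small leucine-rich proteoglycans, which bind fibrils and growth factors, and adhesive matrix proteins were higher in 21 of 30 tested genes and lower in 8, with a median of 4.02. Dcn, decorin, was at 14269, 10415, 12733, 19227 and 12965 CPM in lung FAP 1 to 5 and 81.6, 71.1, 51.8 and 91.3 CPM in MEF 1 to 4. No lung FAP was under 114 times the highest MEF (log2 fold change 7.56 ± 0.228, adjusted p = 3.11e-12). Sparcl1, an anti-adhesive protein, was at 2448 ± 579 CPM in lung FAPs and 5.83 ± 0.886 CPM in MEFs (log2 fold change 8.71 ± 0.171, adjusted p = 2.59e-13), and Ogn, osteoglycin, at 1435 ± 116 CPM in lung FAPs and 31.9 ± 13.2 CPM in MEFs (log2 fold change 5.49 ± 0.307, adjusted p = 8.07e-11). Tnc, tenascin C, which embryonic and wound matrix carries, was at 15.2, 23.03, 5.99, 5.52 and 16.1 CPM in lung FAP 1 to 5 and 1866, 1858, 1933 and 2794 CPM in MEF 1 to 4. All MEFs were far above all lung FAPs, with MEF 4 the highest (log2 fold change −7.32 ± 0.435, adjusted p = 2.78e-09). Thbs1 and Fn1, of provisional matrix, were lower, with log2 fold changes of −2.01 and −1.03, and Fn1 lost its call with MEF 2 and 4 left out (adjusted p = 0.0757). Spp1, osteopontin, was at 2.98, 85.97, 1.01, 4.45 and 3.97 CPM in lung FAP 1 to 5 and 577, 308, 106 and 752 CPM in MEF 1 to 4. Its log2 fold change of −4.47 became −7.17 without lung FAP 2, the highest lung FAP.

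Elastic fibre and basement membrane genes were higher in 14 of 20 and 17 of 27 tested genes. Eln, elastin, was at 1858, 2194, 1749.8, 913 and 1563 CPM in lung FAP 1 to 5 and 30.8, 60.5, 38.7 and 35.3 CPM in MEF 1 to 4. It did not overlap (log2 fold change 5.32 ± 0.301, adjusted p = 1.67e-09). Ltbp4, which holds latent TGF-beta on elastic fibres, was at 2481 ± 1192 CPM in lung FAPs and 17.2 ± 1.04 CPM in MEFs (log2 fold change 7.17 ± 0.380, adjusted p = 7.52e-10), whereas Fbn2, the fetal fibrillin, was at 2.55 ± 1.38 CPM in lung FAPs and 70.97 ± 14.7 CPM in MEFs (log2 fold change −4.79 ± 0.367, adjusted p = 1.20e-07). Col15a1, at the edge of basement membranes, was at 322 ± 142 CPM in lung FAPs and 2.52 ± 0.142 CPM in MEFs (log2 fold change 6.99 ± 0.357, adjusted p = 6.76e-10). Lama2, the laminin chain of muscle and nerve, was at 861 ± 184 CPM in lung FAPs and 74.5 ± 13.1 CPM in MEFs (log2 fold change 3.53 ± 0.195, adjusted p = 3.89e-10), and Col4a2 was lower, at 429.8 ± 149 CPM in lung FAPs and 964 ± 136 CPM in MEFs (log2 fold change −1.16 ± 0.320, adjusted p = 0.000577). Proteases and their inhibitors were higher in 21 of 32 and lower in 8. Mmp3, stromelysin, was at 759 ± 108 CPM in lung FAPs and 23.2 ± 8.51 CPM in MEFs (log2 fold change 5.03 ± 0.320, adjusted p = 4.03e-10), and Timp3, a matrix-bound inhibitor, at 3037 ± 383 CPM in lung FAPs and 382 ± 30.5 CPM in MEFs (log2 fold change 2.99 ± 0.100, adjusted p = 1.55e-10).

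Contractile and actin genes were mainly lower in lung FAPs, 20 of 31, with 6 higher. Acta2, smooth muscle actin, was at 332, 895, 268, 154 and 582 CPM in lung FAP 1 to 5 and 2235, 2553, 3354 and 1856 CPM in MEF 1 to 4. Lung FAP 2 was the highest and lung FAP 4 the lowest of their group, and both lay below all MEFs (log2 fold change −2.49 ± 0.476, adjusted p = 7.19e-05). Actn1, which bundles stress fibres, was at 74.99 ± 25.9 CPM in lung FAPs and 1140.0 ± 26.9 CPM in MEFs (log2 fold change −3.93 ± 0.262, adjusted p = 2.19e-09), and Tpm1, tropomyosin, at 243 ± 76.3 CPM in lung FAPs and 1987 ± 233 CPM in MEFs (log2 fold change −3.03 ± 0.206, adjusted p = 1.96e-09). Lung FAP 2 was the highest lung FAP library in 20 of the 31 members. It was also highest for the summed markers of pericytes and smooth muscle, at 1789 CPM against 500.2 to 1154 in the other lung FAPs, and their part in these values was not tested. Myh11, smooth muscle myosin, was higher in lung FAPs than in MEFs, at 153, 436, 115, 54.97 and 347 CPM in lung FAP 1 to 5 and 26.1, 16.4, 30.9 and 19.998 CPM in MEF 1 to 4. Lung FAP 2 led that group too (log2 fold change 3.25 ± 0.579, adjusted p = 0.000133). Targets of YAP and SRF, factors that respond to tension and actin, were lower in 15 of 22 tested genes and higher in 2. Fhl2, an actin-linked cofactor, was at 5.88 ± 2.36 CPM in lung FAPs and 153 ± 12.6 CPM in MEFs (log2 fold change −4.699 ± 0.307, adjusted p = 9.55e-10), Ctgf, a secreted YAP target, at 475 ± 88.7 CPM in lung FAPs and 1419 ± 155 CPM in MEFs (log2 fold change −1.58 ± 0.150, adjusted p = 7.34e-08), and Cyr61, the related protein, did not pass, at 576 ± 232 CPM in lung FAPs and 639 ± 45.4 CPM in MEFs.

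Several genes of fetal growth were far lower in lung FAPs. Hmga2, a chromatin protein of embryonic mesenchyme, was at 3.52, 3.31, 4.68, 3.39 and 3.85 CPM in lung FAP 1 to 5 and 570.3, 498, 385 and 594 CPM in MEF 1 to 4. The lowest MEF was 82.4 times the highest lung FAP (log2 fold change −7.09 ± 0.167, adjusted p = 4.58e-13). Igf2bp3, an RNA-binding protein of the fetus, was at 2.12 ± 0.844 CPM in lung FAPs and 51.02 ± 2.54 CPM in MEFs (log2 fold change −4.58 ± 0.292, adjusted p = 2.22e-10). Igf2bp1, its relative, was at 0.153 ± 0.161 CPM in lung FAPs and 43.3 ± 6.48 CPM in MEFs, with a log2 fold change of −8.09 that became −8.86 without lung FAP 3. Lin28b, which blocks let-7 microRNAs, had no count in lung FAPs and 0.443 ± 0.106 CPM in MEFs, at least 24.6-fold lower. Of 13 tested genes 7 were lower and 3 higher. Imprinted genes are read from 1 parental copy in some or all tissues, and many regulate fetal growth. In this list 15 of 23 were lower and 6 higher. Igf2, the fetal insulin-like growth factor, was at 60.5, 70.7, 74.5, 61.9 and 77.8 CPM in lung FAP 1 to 5 and 2136, 1944, 1543 and 2905 CPM in MEF 1 to 4. The groups were far apart (log2 fold change −4.95 ± 0.202, adjusted p = 2.11e-11). H19, the noncoding RNA beside it, was at 24.5, 10.8, 20.8, 19.2 and 29.5 CPM in lung FAP 1 to 5 and 792, 681, 328 and 1142 CPM in MEF 1 to 4. Its MEF libraries ranked as for Igf2 (log2 fold change −5.13 ± 0.450, adjusted p = 1.19e-08). Dlk1 was at 2.77 ± 1.59 CPM in lung FAPs and 56.6 ± 20.8 CPM in MEFs (log2 fold change −4.35 ± 0.493, adjusted p = 1.29e-06), while Meg3, from the other parental copy of that locus, was higher, at 216 ± 44.8 CPM in lung FAPs and 45.4 ± 20.5 CPM in MEFs (log2 fold change 2.25 ± 0.374, adjusted p = 5.62e-06). Dcn, counted in this list too, was described with the matrix.

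Secreted growth factors differed both ways, with 40 of 71 higher and 23 lower. Among those higher in lung FAPs, Fgf1, which binds all FGF receptors, was at 97.6 ± 29.1 CPM in lung FAPs and 0.694 ± 0.129 CPM in MEFs (log2 fold change 7.12 ± 0.221, adjusted p = 3.25e-12). Angpt1, the ligand of the endothelial receptor Tek, was at 124 ± 40.4 CPM in lung FAPs and 2.996 ± 0.680 CPM in MEFs (log2 fold change 5.37 ± 0.246, adjusted p = 2.63e-10). Hgf, a factor that activates satellite cells, was at 23.6 ± 12.4 CPM in lung FAPs and 3.08 ± 0.687 CPM in MEFs (log2 fold change 2.93 ± 0.327, adjusted p = 1.35e-06), and Igf1, a muscle growth factor, at 203 ± 36.1 CPM in lung FAPs and 36.3 ± 13.6 CPM in MEFs (log2 fold change 2.48 ± 0.331, adjusted p = 3.31e-07). Bmp5 was at 70.5 ± 32.9 CPM in lung FAPs and 1.02 ± 0.193 CPM in MEFs (log2 fold change 6.11 ± 0.284, adjusted p = 6.77e-10). Wnt2, which specifies the lung bud, was at 18.3 ± 4.69 CPM in lung FAPs and 4.81 ± 1.48 CPM in MEFs (log2 fold change 1.93 ± 0.292, adjusted p = 1.34e-05). Among those lower, Inhba, the activin A chain, was at 3.74 ± 0.988 CPM in lung FAPs and 131 ± 30.2 CPM in MEFs (log2 fold change −5.13 ± 0.243, adjusted p = 8.47e-10), Bdnf, a neurotrophin, at 6.04 ± 3.16 CPM in lung FAPs and 142 ± 18.2 CPM in MEFs (log2 fold change −4.55 ± 0.348, adjusted p = 1.14e-07), and Pdgfc at 5.61 ± 1.85 CPM in lung FAPs and 71.1 ± 10.4 CPM in MEFs (log2 fold change −3.67 ± 0.273, adjusted p = 4.30e-08).

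Antagonists of WNT, BMP and activin showed 11 higher and 6 lower of 21. Grem1, a BMP antagonist of limb buds, was at 0.143, 0.143, 0.0894, 0.166 and 0.120 CPM in lung FAP 1 to 5 and 190.5, 162, 164 and 195 CPM in MEF 1 to 4. The MEFs were close together, and lung FAPs held traces (log2 fold change −10.36 ± 0.127, adjusted p = 1.86e-12). Nog, noggin, was at 0.128 ± 0.100 CPM in lung FAPs and 12.7 ± 3.03 CPM in MEFs (log2 fold change −6.62 ± 0.470, adjusted p = 4.03e-09). The BMP antagonist Chrdl1 was higher, at 99.7 ± 8.903 CPM in lung FAPs and 0.609 ± 0.145 CPM in MEFs (log2 fold change 7.35 ± 0.184, adjusted p = 1.37e-13), as was Sfrp4, a WNT antagonist, at 152 ± 80.03 CPM in lung FAPs and 0.701 ± 0.0919 CPM in MEFs (log2 fold change 7.75 ± 0.401, adjusted p = 1.74e-07). Fst, follistatin, which neutralises activin and myostatin, was at 108, 53.6, 83.1, 112 and 106 CPM in lung FAP 1 to 5 and 56.9, 70.1, 52.7 and 52.8 CPM in MEF 1 to 4. Its libraries overlapped (log2 fold change 0.67 ± 0.220, adjusted p = 0.00478).

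Cytokines and chemokines were higher in lung FAPs in 30 of 44 tested genes and lower in 8, with a median of 2.26. Il6, which acts on satellite cells and immune cells, was at 615, 759.7, 438, 985 and 512 CPM in lung FAP 1 to 5 and 1.16, 0.870, 0.704 and 0.758 CPM in MEF 1 to 4. Lung FAP 4 was highest, and the MEFs lay far below (log2 fold change 9.56 ± 0.256, adjusted p = 1.08e-11). Il33, an alarm signal of stromal nuclei, was at 296 ± 50.5 CPM in lung FAPs and 0.762 ± 0.412 CPM in MEFs (log2 fold change 8.58 ± 0.490, adjusted p = 8.41e-11). Ccl19, a chemokine that draws T cells and dendritic cells, was at 128, 164, 85.8, 138 and 113 CPM in lung FAP 1 to 5 and 0.0485, 0.0425, 0.0909 and 0.0205 CPM in MEF 1 to 4. Lung FAPs were at least 944 times any MEF (log2 fold change 11.21 ± 0.253, adjusted p = 9.16e-11). Ccl11, eotaxin, was at 459 ± 95.6 CPM in lung FAPs and 0.473 ± 0.0764 CPM in MEFs (log2 fold change 9.92 ± 0.158, adjusted p = 7.48e-14), and Cxcl1, which draws neutrophils, at 1017 ± 506 CPM in lung FAPs and 2.19 ± 0.391 CPM in MEFs (log2 fold change 8.86 ± 0.297, adjusted p = 1.15e-10). Cxcl12, which keeps blood stem cells in place, was at 469.7 ± 52.8 CPM in lung FAPs and 159 ± 26.6 CPM in MEFs (log2 fold change 1.57 ± 0.139, adjusted p = 8.71e-08). Among the lower ones, Ccl9 was at 2.71 ± 0.932 CPM in lung FAPs and 19.6 ± 7.97 CPM in MEFs (log2 fold change −2.85 ± 0.446, adjusted p = 1.26e-06), a chemokine also made by macrophages, whose markers were present in the MEF libraries. Il11, an interleukin of activated fibroblasts, was at 2.396 ± 0.677 CPM in lung FAPs and 11.6 ± 1.78 CPM in MEFs (log2 fold change −2.27 ± 0.223, adjusted p = 3.78e-07).

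Complement genes were higher in lung FAPs, with a median log2 fold change of 6.54. Complement is a cascade of plasma proteins that marks cells for removal, and fibroblasts make several of them locally. Of 25 tested genes 20 were higher in lung FAPs, 19 of them over 4-fold, and 4 lower. C3, the central component, was at 14631, 6867, 11589.7, 9141 and 11844 CPM in lung FAP 1 to 5 and 10.5, 7.28, 4.79 and 2.38 CPM in MEF 1 to 4. The lowest lung FAP, replicate 2, was still 651 times the highest MEF (log2 fold change 10.76 ± 0.492, adjusted p = 4.93e-11). C7, of the terminal pore, was at 2215, 1623, 2112, 1886 and 1986 CPM in lung FAP 1 to 5 and 1.55, 1.19, 0.727 and 0.184 CPM in MEF 1 to 4. Lung FAP 2 was again the lowest of its group (log2 fold change 11.08 ± 0.615, adjusted p = 6.80e-11). C1s, a protease of the classical pathway, was at 1834 ± 233 CPM in lung FAPs and 3.79 ± 0.649 CPM in MEFs (log2 fold change 8.92 ± 0.153, adjusted p = 4.11e-14). Serping1, the C1 inhibitor, was at 5627 ± 1534 CPM in lung FAPs and 7.42 ± 1.47 CPM in MEFs (log2 fold change 9.57 ± 0.223, adjusted p = 4.72e-13). C4b was at 1139.7 ± 289.8 CPM in lung FAPs and 0.587 ± 0.284 CPM in MEFs (log2 fold change 10.92 ± 0.430, adjusted p = 2.38e-12), with the reservation that C4a is a near-identical copy that the counting could split. The lower members were the receptors C5ar1 and C3ar1, the protease Masp1 and Cfp. Cfp, properdin, was at 5.02 ± 1.14 CPM in lung FAPs and 7.93 ± 2.49 CPM in MEFs and lost its call when lung FAP 1, 4 or 5 or MEF 1, 2 or 4 was left out. C3ar1, a receptor of macrophages, was at 0.100 ± 0.0861 CPM in lung FAPs and 35.3 ± 13.2 CPM in MEFs (log2 fold change −8.396 ± 0.509, adjusted p = 1.46e-09), beside macrophage markers of 236 to 824 CPM in MEFs, and their part was not tested.

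Class I antigen presentation and interferon response genes were higher in lung FAPs in 38 of 42 tested genes, with 1 lower and a median of 3.55. H2-K1, a classical class I chain, was at 629, 487, 467, 606 and 495 CPM in lung FAP 1 to 5 and 35.1, 26.8, 21.9 and 40.1 CPM in MEF 1 to 4. Between the closest libraries of the groups the ratio was 11.7 (log2 fold change 4.11 ± 0.214, adjusted p = 3.50e-09). B2m, the light chain of all class I molecules, was at 1174 ± 184 CPM in lung FAPs and 415 ± 9.34 CPM in MEFs (log2 fold change 1.501 ± 0.101, adjusted p = 4.64e-05). Psmb8, of the immunoproteasome that cuts peptides for class I, was at 30.3 ± 3.38 CPM in lung FAPs and 1.59 ± 0.640 CPM in MEFs (log2 fold change 4.25 ± 0.356, adjusted p = 8.98e-08). Irf1, the factor of interferon gamma responses, was at 688 ± 126 CPM in lung FAPs and 11.1 ± 0.358 CPM in MEFs (log2 fold change 5.95 ± 0.133, adjusted p = 5.01e-13), and Gbp2, a guanylate-binding protein, at 236 ± 40.5 CPM in lung FAPs and 3.04 ± 0.534 CPM in MEFs (log2 fold change 6.28 ± 0.173, adjusted p = 4.13e-12). Tap1, of the peptide pump, did not pass, at 26.96 ± 5.64 CPM in lung FAPs and 28.5 ± 7.11 CPM in MEFs, and Irgm1 was the lower member, at 43.3 ± 8.01 CPM in lung FAPs and 77.8 ± 10.4 CPM in MEFs (log2 fold change −0.85 ± 0.151, adjusted p = 0.0211). It lost the call with lung FAP 2 and 3 left out, with lung FAP 4 removed as well, and with MEF 2 and 4 left out. H2 and Gbp genes have close relatives, so single values among them are uncertain.

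**Figure D4:**
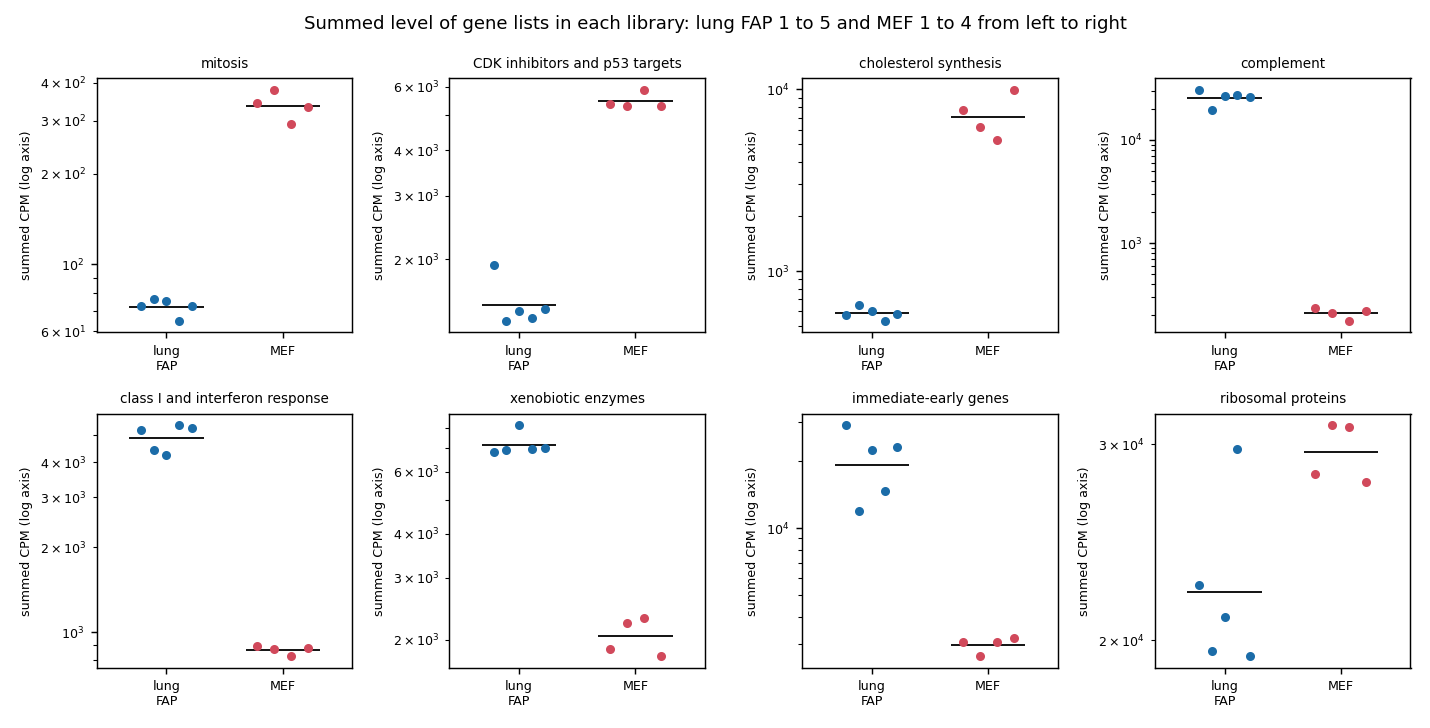
Summed CPM on log axes of the genes of 8 lists, one point per library, lung FAP 1 to 5 and then MEF 1 to 4, with a line at the geometric mean. Complement, class I and interferon, xenobiotic enzymes and immediate-early genes lie higher in every lung FAP, mitosis, CDK inhibitors with p53 targets and cholesterol synthesis lower.

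Immediate-early genes, which cells switch on within minutes of a stimulus or of tissue dissociation, were higher in lung FAPs. Of 29 tested, 25 were higher and 1 lower, with a median of 2.49. Their sum was 11930.0 CPM in lung FAP 2, 14670.0 in lung FAP 4 and 22560.0 to 29060.0 in the other lung FAPs, against 2654 to 3194 in MEFs. Fosb was at 2817, 1194, 2466, 1354 and 2921 CPM in lung FAP 1 to 5 and 7.37, 3.95, 8.13 and 11.5 CPM in MEF 1 to 4. The ratio of the closest libraries was 104 (log2 fold change 8.12 ± 0.421, adjusted p = 6.26e-10). Fos was at 4017, 1130.2, 2743, 1496 and 2843 CPM in lung FAP 1 to 5 and 70.6, 11.8, 53.2 and 76.5 CPM in MEF 1 to 4. Lung FAP 2 and MEF 2 were the lowest of their groups (log2 fold change 5.53 ± 0.712, adjusted p = 1.01e-06). Socs3, a feedback inhibitor of cytokine signalling, was at 1005 ± 324 CPM in lung FAPs and 8.37 ± 1.12 CPM in MEFs (log2 fold change 6.91 ± 0.240, adjusted p = 5.63e-12), and Atf3, a stress factor, at 943 ± 413 CPM in lung FAPs and 37.9 ± 3.96 CPM in MEFs (log2 fold change 4.64 ± 0.292, adjusted p = 3.98e-09). Fosl1, of growing fibroblasts, was lower, at 3.46 ± 1.45 CPM in lung FAPs and 8.41 ± 2.11 CPM in MEFs (log2 fold change −1.28 ± 0.298, adjusted p = 0.000475). A CArG box, the SRF site, lay in the window of 6 of 29 matched promoters of the list (20.7%), against 1.63% of all windows. The windows of Fosb, Fos and Socs3 held none.

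Heat shock genes showed no common direction, with 9 higher and 8 lower of 20, shares near the background. Hspa1a, an inducible Hsp70, was at 119, 66.96, 119, 69.6 and 129.9 CPM in lung FAP 1 to 5 and 5.31, 5.58, 8.95 and 6.27 CPM in MEF 1 to 4. The lung FAPs were higher (log2 fold change 3.95 ± 0.268, adjusted p = 1.29e-09), but muscle FAPs had 3269 ± 278 CPM, far more than lung FAPs, and the near-identical Hspa1b makes the value uncertain. The mitochondrial chaperone Hspd1 was lower, at 133 ± 17.6 CPM in lung FAPs and 467 ± 56.5 CPM in MEFs (log2 fold change −1.82 ± 0.122, adjusted p = 8.26e-09).

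Circadian and glucocorticoid-responsive genes were higher in 26 of 30 and lower in 3, with a median of 2.88. Zbtb16, a factor that glucocorticoids induce, was at 133 ± 10.5 CPM in lung FAPs and 0.168 ± 0.0406 CPM in MEFs (log2 fold change 9.62 ± 0.140, adjusted p = 4.01e-15). Hsd11b1, which regenerates active glucocorticoid, was at 195 ± 78.2 CPM in lung FAPs and 0.534 ± 0.174 CPM in MEFs (log2 fold change 8.496 ± 0.301, adjusted p = 1.26e-10), and Fkbp5, a feedback regulator of its receptor, at 167 ± 37.9 CPM in lung FAPs and 6.69 ± 1.69 CPM in MEFs (log2 fold change 4.64 ± 0.229, adjusted p = 8.01e-11). The clock genes Per2 and Dbp had log2 fold changes of 4.45 and 3.19. The time of day of collection is not given.

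Ribosomal protein genes mostly did not pass. Of 39 tested, 23 did not pass, 15 were lower and 1 higher, with a median log2 fold change of −0.24. With scaling by library size only, 23 were lower and 0 higher. Rplp0, of the ribosomal stalk, was at 1032 ± 261 CPM in lung FAPs and 2760.0 ± 331 CPM in MEFs (log2 fold change −1.42 ± 0.173, adjusted p = 1.70e-06).

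Receptors went both ways, with 47 higher and 13 lower of 74. Il1r1, the receptor of interleukin 1, was at 274 ± 55.03 CPM in lung FAPs and 8.06 ± 1.16 CPM in MEFs (log2 fold change 5.09 ± 0.163, adjusted p = 2.60e-11), and Fgfr3 at 88.3 ± 36.4 CPM in lung FAPs and 2.65 ± 0.639 CPM in MEFs (log2 fold change 5.06 ± 0.316, adjusted p = 5.55e-09). Ntrk2, a receptor of neurotrophins, was at 167 ± 34.7 CPM in lung FAPs and 2.83 ± 0.366 CPM in MEFs (log2 fold change 5.88 ± 0.179, adjusted p = 2.28e-12). Tgfbr3, the co-receptor of TGF-beta, was at 347 ± 75.1 CPM in lung FAPs and 15.7 ± 1.84 CPM in MEFs (log2 fold change 4.47 ± 0.169, adjusted p = 1.77e-11). Il1rl1, the receptor of Il33, went the other way, at 0.888, 0.942, 1.01, 0.997 and 1.47 CPM in lung FAP 1 to 5 and 563, 428, 300.1 and 701 CPM in MEF 1 to 4. The lowest MEF was 204 times the highest lung FAP (log2 fold change −8.87 ± 0.291, adjusted p = 1.70e-11), so the mRNA of the ligand was higher in lung FAPs and that of the receptor in MEFs. Igf1r was at 51.7 ± 12.2 CPM in lung FAPs and 141 ± 15.2 CPM in MEFs (log2 fold change −1.44 ± 0.196, adjusted p = 1.45e-06). The VEGF receptor Flt4 was at 1.32, 16.8, 0.536, 6.21 and 0.903 CPM in lung FAP 1 to 5 and 97.3, 100.03, 118 and 119 CPM in MEF 1 to 4. Its log2 fold change of −4.39 became −5.65 without lung FAP 2.

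Markers of other cell types were checked across the libraries. Lung epithelium markers were higher in lung FAPs in 11 of 14 tested genes, and 13 of the 14 had their highest lung FAP value in replicate 3. Scgb1a1, of airway club cells, was at 84.9, 69.99, 5127, 20.9 and 12.7 CPM in lung FAP 1 to 5 and 0.242, 0.0849, 0 and 0 CPM in MEF 1 to 4. Without lung FAP 3 its log2 fold change went from 13.68 to 9.19, and without MEF 1 to 15.02. Sftpc, the surfactant protein of alveolar type II cells, was at 2.41, 1.54, 2181, 1.03 and 1.38 CPM in lung FAP 1 to 5 and 0.194, 0.0637, 0.0227 and 0.0205 CPM in MEF 1 to 4. The log2 fold change of 12.50 became 4.38 without lung FAP 3 and 13.45 without MEF 1. With limma-voom neither Scgb1a1 (adjusted p = 0.27) nor Sftpc (adjusted p = 0.338) passed. Sftpc also lost its call with MEF 2 and 4 left out (adjusted p = 0.0914). Sftpa1, another surfactant protein, was at 2.89, 1.17, 629, 0.698 and 0.0903 CPM in lung FAP 1 to 5 and 0, 0, 0 and 0 CPM in MEF 1 to 4. It was at least 7653-fold higher in lung FAPs with all libraries and at least 73.3-fold without lung FAP 3. Its adjusted p of 0.0288 in edgeR rose above 0.05 when any one of the MEF libraries was left out, and it was 0.176 with limma-voom. These genes, with Scgb3a1 and Bpifb1, are among the 10 largest differences of the comparison, and the others are Ccl19, Rarres2, C7, Inmt and Beta-s. Sftpa1, Scgb3a1 and Bpifb1 had no count in any MEF library. Scgb3a1 lost its call with limma-voom (adjusted p = 0.0551) and Bpifb1 with MEF 2 and 4 left out (adjusted p = 0.0914). Beta-s, a beta-globin of red blood cells, was at 1.63, 20.1, 0.268, 66.2 and 1.11 CPM in lung FAP 1 to 5 and 0, 0, 0 and 0 CPM in MEF 1 to 4. It was highest in lung FAP 4. Its fold was at least 1079 with all libraries and at least 349 without lung FAP 4, and it did not pass with limma-voom (adjusted p = 0.0781).

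Endothelial markers were higher in 16 of 20 tested genes, and in all 20 lung FAP 2 was the highest of the lung FAPs. In 10 of the 20 all lung FAPs lay above all MEFs, against 32.2% of all tested genes. The summed markers were at 292 to 349 CPM in MEFs, above lung FAP 1 (266 CPM) and lung FAP 3 (262 CPM). Pecam1, an adhesion molecule of endothelium, was at 4.44, 131, 8.11, 41.2 and 12.2 CPM in lung FAP 1 to 5 and 0.606, 0.743, 0.591 and 0.410 CPM in MEF 1 to 4. The lung FAP values spread widely and all exceeded the MEFs (log2 fold change 6.06 ± 0.887, adjusted p = 0.00032), and without lung FAP 2 the log2 fold change was 4.78. Cldn5, of endothelial tight junctions, was at 1.92, 112, 3.52, 35.7 and 5.898 CPM in lung FAP 1 to 5 and 0.121, 0.149, 0.0227 and 0 CPM in MEF 1 to 4. It had the same leading library (log2 fold change 8.72 ± 1.18, adjusted p = 0.000399), and the log2 fold change was 7.26 without lung FAP 2 and 9.36 without MEF 2. Cldn5 did not pass with limma-voom (adjusted p = 0.108). Kdr, a VEGF receptor, went the other way, at 27.2, 93.97, 14.9, 33.6 and 22.7 CPM in lung FAP 1 to 5 and 164, 155, 186 and 186 CPM in MEF 1 to 4. Without lung FAP 2 its log2 fold change of −2.16 became −2.84. Mesothelial markers were higher in 7 of 8, at 515 to 1201 CPM in lung FAPs and 122 to 159.9 CPM in MEFs. Upk3b, of the lung surface, was at 438, 175, 166, 263 and 316 CPM in lung FAP 1 to 5 and 6.74, 13.3, 10.6 and 6.09 CPM in MEF 1 to 4. All lung FAPs were higher (log2 fold change 4.88 ± 0.375, adjusted p = 0.000233).

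Macrophage markers were the reverse, lower in lung FAPs in 12 of 16 tested genes and higher in 1. Their sum was 42.2 to 72.2 CPM in lung FAP 1, 2, 4 and 5 and 789 CPM in lung FAP 3. Most of the sum in lung FAP 3 was Lyz2, and 6 of the 16 members had their highest lung FAP value in that library. C1qb, a complement subunit of tissue macrophages, was at 0.0859, 0, 0.0596, 0.133 and 0 CPM in lung FAP 1 to 5 and 58.4, 37.5, 17.1 and 52.2 CPM in MEF 1 to 4. MEF 1 was the highest and MEF 3 the lowest MEF (log2 fold change −9.49 ± 0.542, adjusted p = 1.38e-09). Lyz2, lysozyme of macrophages and of alveolar type II cells, was at 5.56, 7.45, 615, 5.15 and 7.16 CPM in lung FAP 1 to 5 and 322, 197, 67.6 and 232 CPM in MEF 1 to 4. It overlapped and did not pass, and without lung FAP 3 it was lower in lung FAPs by a log2 fold change of −5.01. Cartilage and bone markers were lower in 11 of 15, and in muscle lineage 6 of 12 were lower and 4 higher. Runx2, of bone, was at 1.08 ± 0.855 CPM in lung FAPs and 24.9 ± 1.33 CPM in MEFs (log2 fold change −4.52 ± 0.981, adjusted p = 1.26e-05), and Ncam1, a neural and muscle adhesion molecule, at 1.72 ± 0.514 CPM in lung FAPs and 132 ± 24.1 CPM in MEFs (log2 fold change −6.26 ± 0.218, adjusted p = 8.99e-13). Hemoglobin genes Hba-a1 and Hbb-b1 were listed at 0 in every library. These zeros do not show that hemoglobin RNA was absent, since the beta-globin entry Beta-s reached 66.2 CPM in lung FAP 4.

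**Figure D5:**
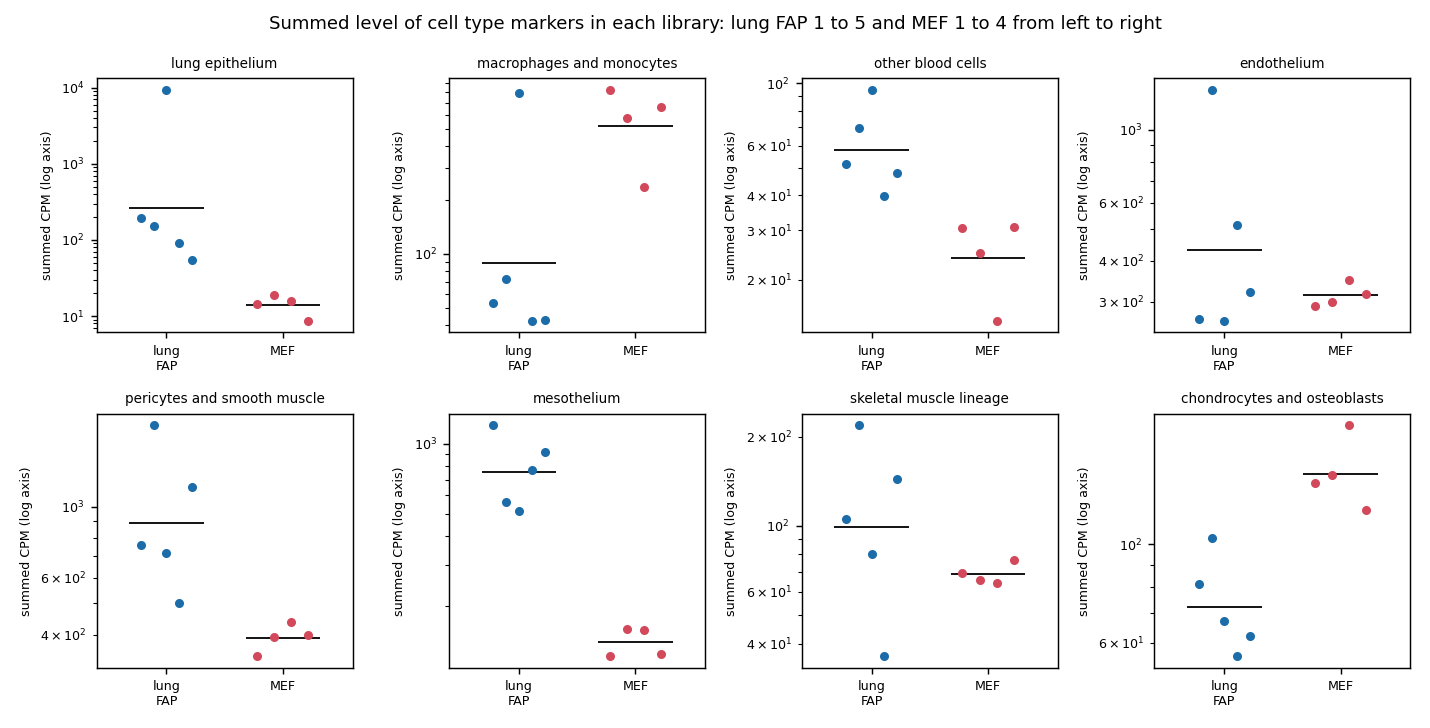
Summed CPM on log axes of markers of 8 other cell types, one point per library, lung FAP 1 to 5 and then MEF 1 to 4, with a line at the geometric mean. Lung FAP 3 stands out in lung epithelium, lung FAP 2 in endothelium, and all MEFs carry macrophage markers. The macrophage sum of lung FAP 3 is also high, but most of it is Lyz2 (615 CPM), which alveolar type II cells make too.

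The 10 largest differences in the other direction were those of Slitrk5, Hoxc10, Hist1h2ab, Dgkk, Hoxa11, Dlx2, Grem1, Gareml, Mogat2 and Crct1, most of them with no or single counts in lung FAPs. Slitrk5, a neuronal membrane protein, was at 14.05 ± 1.71 CPM in MEFs and had no count in lung FAPs, at least 781-fold lower. Dlx2, a homeobox factor of the jaw and forebrain, was at 12.4 ± 5.89 CPM in MEFs and had 1 count in lung FAPs, a ratio of counts of 2052 with a 95% counting interval of 368 to 81098.

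Against muscle FAPs, in the same fit, 25% of tested genes were higher in lung FAPs and 23.2% lower, 48.2% in all. For the lists that set lung FAPs apart from MEFs, the muscle FAP values divide them. Complement was higher than in muscle FAPs in 13 of 25 genes and lower in 1, and xenobiotic enzymes in 26 and 2 of 43. C3 was at 5024 ± 266 CPM in muscle FAPs (log2 fold change of lung over muscle 1.11 ± 0.190, adjusted p = 0.0099). Class I and interferon genes mostly did not differ enough to pass, with 3 higher and 7 lower of 42. Cholesterol synthesis had 5 higher and 7 lower of 25, and Cyp51 was at 26.2 ± 1.77 CPM in muscle FAPs (log2 fold change of lung over muscle −0.02 ± 0.171, adjusted p = 0.951). Fibril collagens and their enzymes were lower than in muscle FAPs in 28 of 36, and Col3a1 was at 35588 ± 5989 CPM there (log2 fold change of lung over muscle −1.24 ± 0.192, adjusted p = 7.47e-05). Contractile genes were higher than in muscle FAPs in 23 of 31, with Acta2 at 5.32 ± 0.897 CPM (log2 fold change of lung over muscle 6.39 ± 0.457, adjusted p = 5.22e-07).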

How the data were processed

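Total RNA was isolated with Trizol and columns before Illumina library preparation, per the labels' protocols. The submitters' processing notes name Bowtie2 2.1.0.0, HTSeq, edgeR and the build mm10. Neither strand nor gene annotation is stated in the labels, so overlapping or antisense genes and near-identical copies may share reads. The authors deposited raw counts per gene, with 0 columns of other samples. Here TMM scaling and edgeR 4.0.16 (R 4.3.3) were used, in a robust quasi-likelihood model over all 13 libraries with group as the factor, after filterByExpr. The threshold was a Benjamini-Hochberg adjusted p under 0.05. The SE of a log2 fold change comes from log2 CPM with a prior count of 2, and values after ± are SD for levels and SE for fold changes. The prior count draws libraries with few counts together, so the SE is too small for genes near 0 in a group. A group without counts was set at 3 counts over the group, and 1 to 3 counts give a ratio with a 95% interval; both cover counting error only. A list is described by counts and its median, beside the same over all tested genes. The named genes are the 10 largest differences in each direction (at least 10 CPM, no overlap), in each list the 2 largest passing members per direction (at least 5 CPM) and the most abundant, and in each marker list the 2 highest members per group; some are not reported, and further members were added as examples after their values were seen. The members and lists were chosen with earlier results of these data known. The fit was tested on simulated data in which few genes differed. Most tested genes passed in the real comparison, so that test does not cover its setting. Alternatives were DESeq2 1.42.0 size factors and Wald test, library size only, upper-quartile scaling, no filter, a filter of 5 CPM in 4 libraries, limma-voom (limma 3.58.1), glmTreat against 2-fold, a block of the replicate number, the 9 libraries alone, and single or several libraries left out. Promoters are from RefSeq (GRCm38.p6).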

Additional observations from a re-analysis of the deposited data

Results flagged for a closer look

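Named genes, some of the summed marker lists and the library totals were checked for a library that lay far from the rest of its group. Dixon's test at the 95% level was used, with 472 checks in all, of which 45 met it. The remaining marker sums were not checked. Chance gives about 1 in 20 such marks, so single ones carry little weight. For Gareml, Hoxa11, Dlx2 and Mogat2 in lung FAPs and Adipoq in MEFs, the other libraries of the group had no count. The test is always met in that case, so these marks say nothing about the library. MEF 1 was the outlying lowest library of its group for Asns (92.7 CPM). MEF 2 was the outlying highest library of its group for Adipoq (0.127 CPM), Cdk1 (19.7 CPM) and Meox2 (2.87 CPM). MEF 3 was the outlying highest library of its group for Il11 (14.2 CPM). MEF 3 was the outlying lowest library of its group for Cfp (4.203 CPM), Mcm6 (24.5 CPM) and Top2a (18.8 CPM). MEF 4 was the outlying highest library of its group for Ebp (45.2 CPM) and Tnc (2794 CPM). Lung FAP 1 was the outlying highest library of its group for Adipoq (17.1 CPM), Fkbp5 (232 CPM), Pitx1 (0.602 CPM) and Sesn1 (98.02 CPM). Lung FAP 2 was the outlying highest library of its group for Angpt1 (194 CPM), Bmp5 (128 CPM), Foxf1 (114 CPM), Hgf (45.4 CPM), Hsd11b1 (333 CPM), Kdr (93.97 CPM), Sparcl1 (3465 CPM), Spp1 (85.97 CPM) and endothelium markers in sum (1321 CPM). Lung FAP 2 was the outlying lowest library of its group for Col14a1 (1517 CPM) and Ntrk2 (107 CPM). Lung FAP 3 was the outlying highest library of its group for Bpifb1 (39.8 CPM), Cbr2 (747 CPM), Cyp2f2 (332 CPM), Gsto1 (45.9 CPM), Lyz2 (615 CPM), Mogat2 (0.0298 CPM), Scgb1a1 (5127 CPM), Scgb3a1 (122 CPM), Sftpa1 (629 CPM), Sftpc (2181 CPM), Sox2 (2.35 CPM), lung epithelium markers in sum (9321 CPM) and macrophages and monocytes markers in sum (789 CPM). Lung FAP 4 was the outlying highest library of its group for Ccl11 (624 CPM), Cxcl1 (1908 CPM), Gareml (0.0332 CPM) and Hoxa11 (0.0332 CPM). Lung FAP 4 was the outlying lowest library of its group for Col4a2 (175 CPM). Lung FAP 5 was the outlying highest library of its group for Dlx2 (0.0301 CPM) and Il1rl1 (1.47 CPM).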

How the results depend on the processing

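The counts of 5825 higher and 5639 lower genes stayed within 1.5 times in every alternative except the test against a 2-fold change (glmTreat), which gave 3413 higher and 2531 lower because it asks for a larger difference. Leaving out 1 library at a time gave 5576 to 5816 higher and 5382 to 5778 lower genes. No gene that passed in the full set passed in the opposite direction in any alternative. Scaling by library size only moved the median log2 fold change of all tested genes from 0.02 to −0.15, with 5217 higher and 6326 lower, so small differences depend on the scaling, and 50.8% of called genes were higher with TMM against 45.2%. With the replicate number as a block the counts were 5535 and 5586. The labels do not say that the numbers pair the libraries. Same-numbered deviations correlated at −0.0484 to 0.0316, and those of unlike numbers at −0.0735 to 0.0708. With so few pairs these values cannot decide whether libraries shared a preparation. Of 4915 values of named genes over 22 alternatives, 4828 kept direction and side of the threshold, 61 lost the call and 25 gained it. Xist reversed, to a log2 fold change of 1.67 with MEF 2 and 4 left out (adjusted p = 0.222 in edgeR), since those libraries carry it. With limma-voom Scgb1a1 (adjusted p = 0.27), Sftpc (0.338), Sftpa1 (0.176), Scgb3a1 (0.0551), Cyp2f2 (0.117), Cbr2 (0.141), Cldn5 (0.108), Beta-s (0.0781) and Xist (0.372) lost their calls. Muscle libraries were not left out in turn. Depth limits genes with under 3 counts in a group.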

Other observations

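Further marker lists went both ways. Of 8 tested tendon genes 3 were higher and 3 lower, with summed levels of 921 to 3029 CPM in lung FAPs and 80.7 to 168 CPM in MEFs. A single member, the transcription factor Egr1, made up most of these sums, with means of 1859 CPM in lung FAPs and 85.15 CPM in MEFs. The sums therefore say little about the other members. Scx, the tendon transcription factor, was at 0.167 ± 0.185 CPM in lung FAPs and 6.51 ± 1.1996 CPM in MEFs (log2 fold change −5.25 ± 0.604, adjusted p = 2.98e-06), and its log2 fold change was −6.01 without lung FAP 3. Thbs4, a tendon and muscle matrix protein, was at 29.9 ± 19.4 CPM in lung FAPs and 1.13 ± 0.284 CPM in MEFs (log2 fold change 4.72 ± 0.647, adjusted p = 1.39e-05). Of 12 tested Schwann and neural genes 5 were lower and 2 higher, and Tubb3, the neuronal tubulin, was at 2.34 ± 1.02 CPM in lung FAPs and 65.96 ± 16.1 CPM in MEFs (log2 fold change −4.81 ± 0.311, adjusted p = 5.62e-10). Of 10 tested skin epithelium genes 5 were lower and 2 higher. Sfn, of stratified epithelium, was at 4.07 ± 2.69 CPM in lung FAPs and 43.9 ± 3.35 CPM in MEFs (log2 fold change −3.43 ± 0.398, adjusted p = 6.52e-05). Blood cells other than macrophages had 8 higher and 1 lower of 14, with summed levels of 39.7 to 94.8 CPM in lung FAPs and 14.3 to 30.8 CPM in MEFs. Only 1 pluripotency gene, Sox2, had enough reads to be tested, and it did not pass, although without lung FAP 3 it was lower in lung FAPs (log2 fold change −6.17). Of 2 tested red cell genes 1 was higher. Of 5 tested sex-linked genes 1 was higher and 1 lower, and Xist was at 0.0286, 0.485, 0.209, 0.0997 and 0.361 CPM in lung FAP 1 to 5 and 0.121, 87.2, 0.0227 and 99.5 CPM in MEF 1 to 4.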
